A study of Mus musculus and Homo sapiens with 18 samples.

Results

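RNA levels of 10 genes that export cholesterol from cells, sense oxysterols or move sterols between membranes were followed through deletion of the RNA-binding protein quaking (Qk in mouse, QKI in human) in 3 systems. The genes are Abca1, Abcg1, Apoe, Nr1h2, Nr1h3, Npc1, Npc2, Soat1, Cyp27a1 and Ch25h. They were chosen by symbol, with the upper-case human symbols in the human table, by a rule that reads no measured value, but the set was proposed with earlier results of these data known. All 10 were found in each deposited table, among 46882 genes of the lens table, 54838 of the NLPC table and 60880 of the HLE-B3 table.

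Cells cannot break down the sterol ring, so surplus cholesterol is either exported or esterified. Cholesterol taken up in lipoproteins is freed in the lysosome, where NPC2 picks it up from the lumen and hands it to NPC1 in the limiting membrane for export to the rest of the cell. At the endoplasmic reticulum SOAT1 esterifies it for storage in droplets, while the hydroxylases CYP27A1, in mitochondria, and CH25H turn it into oxysterols. Oxysterols are ligands of the liver X receptors LXRα (Nr1h3) and LXRβ (Nr1h2), which activate Abca1, Abcg1 and, in macrophages and astrocytes, Apoe. ABCA1 and ABCG1 load cholesterol onto apolipoproteins and lipoprotein particles, and apolipoprotein E is the main carrier of cholesterol made by astrocytes and macrophages. Lens fibre cells hold membranes unusually rich in cholesterol and, once mature, have lost the organelles in which sterols are made.

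The study sequenced 18 libraries, 3 in each of 6 groups, and asked how loss of quaking changes the transcriptome of lens cells. Lenses were dissected at postnatal days 17 to 19 from Ctrl mice (Nestin-CreERT2; QkL/+) and Qk-iCKO mice (Nestin-CreERT2; QkL/L), in which loxP sites flank exon 2 of Qk and the Nestin promoter drives the inducible recombinase. Both genotypes carried the Cre transgene and, per the study's methods, received tamoxifen on postnatal days 7 and 8, so that the Ctrl mice also held a floxed allele. NLPCs, which are lens progenitor-like cells, were differentiated from neural stem cells of Nestin-CreERT2; QkL/L mice with Noggin at 100 ng/ml for 6 days and then bFGF at 100 ng/ml together with BMP4 and BMP7, each at 20 ng/ml, for 12 days, and their groups were wild type (WT) and Qk-/-, the latter deleted with 4-hydroxytamoxifen. HLE-B3 is an immortalized human lens epithelial line, grown in 20% fetal bovine serum, and its groups were wild type (WT) and QKI KO, made with CRISPR-Cas9. The study describes its cell line replicates in general as independent biological ones. How the 3 libraries of each cell group were cultured, and whether the QKI KO libraries came from 1 clone or several, is not given in the sources used here, and p-values measure the spread between these libraries.

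Levels are CPM, a gene's read count per mega-count of its library after TMM scaling, with total counts per library between 10319320 and 16425331 in the lens, 28154202 and 68243360 in the NLPCs and 69190864 and 81384471 in HLE-B3 cells. QKI itself fell in QKI KO cells (log2 fold change −1.34, adjusted p = 1.85e-11, edgeR). In the lens Qk had a log2 fold change of −0.31 that did not pass the test (adjusted p = 0.2001, edgeR), and counts over the whole gene include exons outside the deleted one. In NLPCs Qk RNA was higher in the libraries labelled Qk-/- (log2 fold change 0.41, adjusted p = 0.0270, edgeR), and here too the counts include exons outside the deleted one, so that RNA counts do not check the deletion and directions rest on the labels. The summed lens fibre markers were 268749 to 288268 CPM in Ctrl lenses, 41.6 to 52.0 CPM in WT NLPCs and 8.41 to 9.43 CPM in WT HLE-B3 cells, where the fibre crystallin gene CRYAA was at 0 in every library. In WT NLPCs the summed astrocyte and neural stem markers stood at 8360 to 8727 CPM, and Foxe3, a transcription factor of lens epithelium, was at 0 in each of these libraries. Qk-iCKO lens 1 stood apart from the other lenses, with crystallin genes at 56.3% of its counts against 64.7 to 66.9% in the other 5, and the counts on 4 Y-linked genes were 0, 0 and 3 in the Ctrl lenses and 1, 1051 and 930 in the Qk-iCKO lenses.

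The promoters of Abca1 and Apoe are shown because Abca1 passed the test as higher in the lens and lower in HLE-B3 cells, and Apoe as lower in NLPCs and HLE-B3 cells, as described below. Each sequence holds the 250 bases before the transcription start, 5′ to 3′ on the gene's strand, with capitals for matches to the E-box CACGTG, the GC box GGGCGG, the quaking core ACTAAC and the DR4 element bound by LXR with its partner RXR, searched on both strands. The DR4 element was matched with at most 1 mismatch, a tolerance set after these promoters had been read. The mouse windows are RefSeq starts on GRCm38.p6, for Abca1 chr4:53159896-53160145 (minus strand) and for Apoe chr7:19699189-19699438 (minus strand), and the human windows are GENCODE starts on GRCh37, for ABCA1 chr9:107690437-107690686 (minus strand) and for APOE chr19:45408803-45409052 (plus strand).
Abca1: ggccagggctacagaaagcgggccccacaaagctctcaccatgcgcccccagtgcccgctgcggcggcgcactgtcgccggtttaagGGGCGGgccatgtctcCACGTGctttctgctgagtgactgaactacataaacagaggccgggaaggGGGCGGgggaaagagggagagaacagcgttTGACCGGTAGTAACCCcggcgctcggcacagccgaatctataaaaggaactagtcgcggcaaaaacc
ABCA1: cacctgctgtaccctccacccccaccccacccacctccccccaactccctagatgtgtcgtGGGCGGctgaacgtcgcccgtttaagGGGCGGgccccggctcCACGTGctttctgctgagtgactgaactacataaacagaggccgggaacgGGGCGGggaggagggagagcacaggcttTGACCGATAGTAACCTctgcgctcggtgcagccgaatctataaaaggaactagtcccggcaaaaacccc
Apoe: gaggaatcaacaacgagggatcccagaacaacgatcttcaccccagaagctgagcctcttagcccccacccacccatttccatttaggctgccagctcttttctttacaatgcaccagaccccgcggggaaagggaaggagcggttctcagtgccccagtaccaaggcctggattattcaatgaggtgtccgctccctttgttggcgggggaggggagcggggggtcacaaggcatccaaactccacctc
APOE: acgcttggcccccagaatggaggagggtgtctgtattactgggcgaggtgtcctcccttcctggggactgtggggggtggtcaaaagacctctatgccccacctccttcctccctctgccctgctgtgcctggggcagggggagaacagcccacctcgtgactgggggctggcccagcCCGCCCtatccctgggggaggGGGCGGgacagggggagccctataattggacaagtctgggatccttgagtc

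The Abca1 and ABCA1 windows both held an E-box, GC boxes and a DR4 match, and shared an unbroken run of 51 identical bases, from 150 to 100 bases before the start in both species. In both, the E-box lay 147 to 142 bases before the start, and GC boxes lay at 163 to 158 and at 97 to 92 bases, with a further GC box at 189 to 184 bases in human alone. The DR4 match, with 1 mismatch, lay at 67 to 52 bases in mouse and at 69 to 54 bases in human, on the other strand. Such a match was found in 4.05% of 32851 mouse promoter windows of this length and in 2.51% of 19867 human windows. E-boxes were held by 6.02% and 7.87% of them, GC boxes by 32.7% and 59.1%, and the ACTAAC core by 5.20% and 3.24%. The mouse windows include every listed start, with several for some genes, and the human windows hold 1 start per protein-coding gene. The shares are therefore not compared between species. The Apoe window shown held none of these matches, the APOE window held 2 GC boxes, and the longest run these 2 windows shared was 10 bases. Mouse Apoe had further listed starts, whose windows also held no match and were not compared with human for a shared run. Windows were searched for 8 of the 10 genes in mouse and for all 10 in human, and none of them held the ACTAAC core. In mouse no window was listed for Abcg1, and member windows on chromosome 18, where Npc1 lies, were left out.

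In the lens, both export transporters, the esterifying enzyme and an oxysterol-forming enzyme were higher after Qk deletion. Of 9 members with enough counts to be tested, 4 passed the test (edgeR's quasi-likelihood test with Benjamini-Hochberg adjustment over all genes), namely Abca1, Abcg1, Soat1 and Ch25h, and all 4 were higher in Qk-iCKO lenses. Over all 12201 genes tested, 12.3% passed, with 8.38% higher and 3.88% lower. Ch25h and Cyp27a1 passed the filter on low counts only through the Qk-iCKO lenses, so that they had to differ, and of the other 7 members 3 passed the test. The median log2 fold change of the 9 members was 1.28, the value of Cyp27a1 itself, and that of all genes tested was 0.0064. Groups did not overlap in 8 of the 9 members, each with higher levels in Qk-iCKO lenses. The median and the 8 include Ch25h and Cyp27a1, which had to differ. Of the other 7 tested members Npc1 alone overlapped. Of all genes tested 35.3% did not overlap, 18.2% higher and 17.1% lower.

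Abca1 (chr4:53030787-53159895, GRCm38), which moves cholesterol and phospholipid to lipid-poor apolipoproteins, stood at 7.19, 4.77 and 8.70 CPM in the Ctrl lenses and 31.5, 13.6 and 22.0 CPM in the Qk-iCKO lenses. Every Qk-iCKO lens was above every Ctrl lens, and Qk-iCKO lens 1 was the highest. This gave a log2 fold change of 1.70 (SE 0.34, adjusted p = 0.0192, edgeR), a 3.26-fold rise. Abcg1 (chr17:31057675-31117988), which moves cholesterol to larger lipoprotein particles, stood at 1.49, 2.49 and 1.10 CPM in Ctrl lenses and 9.31, 4.35 and 6.65 CPM in Qk-iCKO lenses. The order of the 3 Qk-iCKO lenses was that of Abca1, and the groups did not overlap. Its log2 fold change was 2.00 (SE 0.39, adjusted p = 0.0179, edgeR). Neither call was kept when Ctrl lens 1 was left out (adjusted p = 0.0807 for Abca1 and 0.0815 for Abcg1, edgeR). The Abca1 call was also lost without Ctrl lens 2 (adjusted p = 0.0734, edgeR) and the Abcg1 call without Ctrl lens 3 (adjusted p = 0.0679, edgeR).

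Apoe (chr7:19696109-19699188), the apolipoprotein that accepts exported cholesterol, had the largest difference in CPM of the 10 genes in the lens. It stood at 45.6, 53.0 and 11.9 CPM in Ctrl lenses and 444, 413 and 60.8 CPM in Qk-iCKO lenses. The third lens was the lowest of its group in both genotypes, and the lowest Qk-iCKO lens was only just above the highest Ctrl lens. The log2 fold change was 3.05 (SE 0.81, adjusted p = 0.0504, edgeR) and did not pass the test. With the replicate number as a block it was 2.88 and passed (adjusted p = 0.000565, edgeR), and without Qk-iCKO lens 3 it was 3.54 (adjusted p = 0.0137, edgeR). It also passed in DESeq2 (adjusted p = 0.0140), with every gene of at least 1 count tested (adjusted p = 3.00e-05, edgeR) and with at least 10 counts required in every library (adjusted p = 0.0483, edgeR). These were 5 of 13 alternative fits, and in the other 8 it did not pass (adjusted p up to 0.143, edgeR).

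The oxysterol enzymes were scarce in the Ctrl lens. Ch25h (chr19:34473778-34475164), the cholesterol 25-hydroxylase, had 0, 1 and 0 reads in the Ctrl lenses and 31, 18 and 17 reads in the Qk-iCKO lenses, or 1.90, 1.74 and 1.71 CPM. The ratio of the summed counts after scaling was 73.5, with a 95% counting interval from 12.7 to 2945, which covers counting error only. Its adjusted p was 0.00231 (edgeR), for a gene that could be tested only because of its reads in Qk-iCKO lenses. Cyp27a1 (chr1:74713574-74737892), the mitochondrial sterol 27-hydroxylase, had between 4 and 9 reads in Ctrl lenses and between 14 and 17 in Qk-iCKO lenses. Its level was 0.331, 0.569 and 0.616 CPM against 1.04, 1.35 and 1.41 CPM, without overlap, and its log2 fold change of 1.28 (SE 0.37) did not pass (adjusted p = 0.0668, edgeR).

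Soat1 (chr1:156424525-156474331), which forms cholesteryl esters at the endoplasmic reticulum, stood at 8.68, 8.47 and 7.53 CPM in Ctrl lenses and 17.1, 10.4 and 16.3 CPM in Qk-iCKO lenses. Qk-iCKO lens 2 was close to the Ctrl lenses, and the other Qk-iCKO lenses were well above them. On the log2 scale Soat1 was higher by 0.83 (SE 0.21, adjusted p = 0.0421, edgeR). The call was lost when any of the 3 Ctrl lenses or Qk-iCKO lens 1 or 3 was left out, with an adjusted p from edgeR between 0.0866 and 0.151, and with total counts in place of TMM (adjusted p = 0.0960, edgeR).

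The receptors and the lysosomal pair differed less. Nr1h2 (chr7:44549616-44553951), which encodes LXRβ, stood at 8.60, 8.40 and 6.85 CPM in Ctrl lenses and 14.4, 10.1 and 13.8 CPM in Qk-iCKO lenses. The groups did not overlap, and the log2 fold change of 0.69 (SE 0.19) missed the threshold (adjusted p = 0.0535, edgeR), but passed without Qk-iCKO lens 2 (adjusted p = 0.0311, edgeR) and with every gene of at least 1 count tested (adjusted p = 0.0429, edgeR). Nr1h3 (chr2:91184061-91202834), which encodes LXRα, had 7, 9 and 2 reads against 23, 9 and 6, too few to be tested, and its levels overlapped. Npc2 (chr12:84754562-84773152), the soluble lysosomal sterol carrier, stood at 46.8, 47.4 and 54.9 CPM against 56.4, 79.2 and 67.4 CPM. These groups were separated by a narrow margin, and the log2 fold change of 0.44 (SE 0.17) did not pass (adjusted p = 0.131, edgeR), except without Qk-iCKO lens 1 (adjusted p = 0.0399, edgeR) and with total counts in place of TMM (adjusted p = 0.0482, edgeR). Npc1 (chr18:12189692-12236400), the membrane protein that passes on its cargo, was the only tested member whose groups overlapped in the lens, with 13.5, 10.9 and 11.6 CPM against 16.8, 12.7 and 14.3 CPM and a log2 fold change of 0.29 (SE 0.16, adjusted p = 0.285, edgeR).

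Macrophages express several of these genes, and macrophage and leukocyte markers also differed between the lens groups. Of the 15 listed markers 13 could be tested, and all 13 were higher in Qk-iCKO lenses, with a median log2 fold change of 5.96, although 12 of them passed the filter on low counts only through those lenses. Their summed level was 3.39 to 6.58 CPM in Ctrl lenses and 211 to 274 CPM in Qk-iCKO lenses. Ptprc, which encodes the leukocyte antigen CD45, stood at 0.083, 0 and 0.068 CPM in Ctrl lenses and 2.76, 3.28 and 5.64 CPM in Qk-iCKO lenses, and Aif1 was at 0 in every Ctrl lens. The summed markers were highest in Qk-iCKO lens 3, whereas Abca1, Abcg1, Apoe and Ch25h were highest in Qk-iCKO lens 1. The part of these cells in the members' values was not tested. The summed lens fibre markers were 143098 to 246547 CPM in Qk-iCKO lenses, below the Ctrl range, with 1 of 9 tested markers lower, and the lens epithelium markers were 14366 to 19354 CPM against 22236 to 31724 CPM, with none of 6 called. Nearly all of the epithelium sum was Cryab, at a mean of 16985 CPM in Qk-iCKO and 26153 CPM in Ctrl lenses. The log2 fold changes of the other epithelium markers ran from −0.57 (Foxe3) to 0.053 (Cdh1). Of 7 tested endothelium and mural markers Pecam1 and Tek passed as higher (log2 fold changes 2.21 and 1.74), while Pdgfrb was at −1.17 without a call. Nes was the only one of 7 called in the astrocyte and neural stem list (2.19), and Cspg4 1 of 2 in the oligodendrocyte lineage list (1.81). Over all genes tested, 8.38% passed as higher. The part of cells with these markers in the members' values was not tested either. In bulk RNA, fewer cells of a type and less RNA per cell cannot be told apart.

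Within the groups, the summed retina, pigment epithelium and melanocyte markers were 50.5, 296 and 4.93 CPM in Ctrl lenses and 181, 50.04 and 16.02 CPM in Qk-iCKO lenses. The third lens of each group was the lowest, as for Apoe. This also held for the summed astrocyte and neural stem, endothelium and mural, and erythrocyte markers, but not for the other lists. The astrocyte and neural stem sums were 55.2, 62.3 and 46.4 CPM in Ctrl lenses and 100, 101 and 61.0 CPM in Qk-iCKO lenses. The part of any of these cells or tissues in the Apoe values was not tested. Y-linked reads were plentiful in Qk-iCKO lenses 2 and 3 and nearly absent in the other 4 lenses, and the part of sex in the lens values was not tested.

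**Figure D1:**
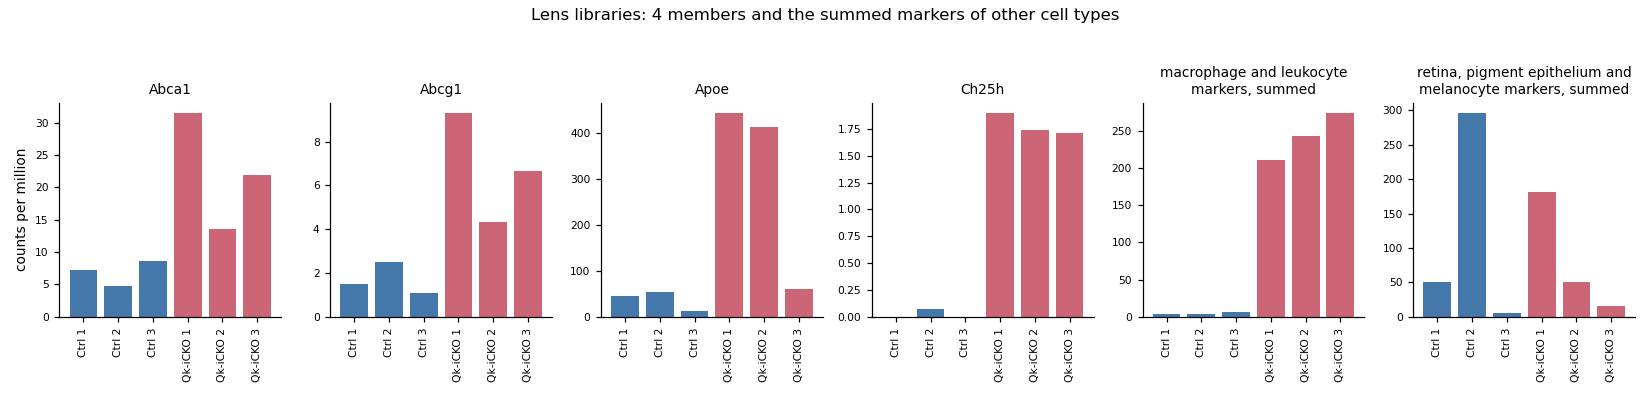
Bars give the CPM of Abca1, Abcg1, Apoe and Ch25h and the summed CPM of 2 marker lists in each of the 3 Ctrl (blue) and 3 Qk-iCKO (red) lenses, on linear axes from 0. The macrophage and leukocyte sum was 211 to 274 in all Qk-iCKO lenses, while Apoe was 444 and 413 in 2 of them and 60.8 in the third.

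Among the other 75 genes of the pathway, 56 could be tested in the lens, and 11 passed, 9 higher and 2 lower, where 12.3% of all genes passed, 8.38% higher and 3.88% lower, with a median log2 fold change of 0.25. The largest was Cd36, a fatty acid and lipoprotein scavenger receptor, at 2.83 ± 1.80 CPM (SD, n = 3) in Ctrl and 23.3 ± 16.2 CPM in Qk-iCKO lenses (log2 fold change 3.06). Rxrg, a retinoid X receptor that pairs with LXR, fell from 15.7 ± 1.73 to 2.89 ± 0.66 CPM (log2 fold change −2.43). Nceh1, which hydrolyses cholesteryl esters, had a log2 fold change of 2.24, and Pltp, the phospholipid transfer protein and an LXR target, one of 2.06. Abca7, a transporter related to Abca1, rose by 1.54 on the log2 scale, the lysosomal acid lipase gene Lipa by 1.35, Arl4c, an LXR target, by 1.32, and Psap, the precursor of lysosomal saposins, by 1.10. Of the lysosomal list 3 of 8 tested genes were higher and none lower, of the other LXR targets 2 of 9 were higher, and of the sterol transfer list 1 of 21 was higher and 1 lower, none of which was tested against all genes. The count of pathway genes was 3 without Ctrl lens 1, 5 without Ctrl lens 2 and 4 without Ctrl lens 3.

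In NLPCs Apoe and Npc1 fell, and Abca1 and Soat1, at a like level to Npc1, did not pass the test. Of 8 members tested, 3 passed (edgeR's quasi-likelihood test with Benjamini-Hochberg adjustment), with Apoe and Npc1 lower and Abcg1 higher in the libraries labelled Qk-/-. Over all 20371 genes tested, 10.7% passed, 4.74% higher and 5.96% lower. Abcg1 passed the filter on low counts only through the libraries labelled Qk-/-, and of the other 7 members 2 passed the test. The members' median log2 fold change was −0.17, beside 0.040 for all genes tested. Groups did not overlap for 4 of the 8, and for 35.2% of all genes, 15.9% higher and 19.3% lower. The median and the 4 include Abcg1, which had to differ.

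Apoe stood at 212, 224 and 199 CPM in WT NLPCs and at 46.4, 27.9 and 48.9 CPM in the libraries labelled Qk-/-. The groups lay far apart, and replicate 2 of the libraries labelled Qk-/-, which had the fewest counts of the 6, was the lowest. The log2 fold change was −2.37 (SE 0.20, adjusted p = 0.000553, edgeR), a 5.15-fold fall. Npc1 stood at 148, 131 and 153 CPM in WT and 67.4, 55.9 and 63.4 CPM in the libraries labelled Qk-/-. No library labelled Qk-/- came near the WT range, and the log2 fold change was −1.21 (SE 0.11, adjusted p = 0.000578, edgeR). Both falls kept their direction and their call under every alternative setting and every left-out library, with log2 fold changes from −2.52 to −2.15 for Apoe and from −1.29 to −1.13 for Npc1 over the fits that left out 1 library. Several marker lists moved with them. The summed astrocyte and neural stem markers were 5564 to 6477 CPM in the libraries labelled Qk-/-, against 8360 to 8727 CPM in WT, and of the 9 markers 3 were lower and 1 higher. The oligodendrocyte lineage markers were 624 to 1002 CPM against 1130 to 1278 CPM, with 3 of 7 lower. The neuron markers were 1558 to 1689 CPM against 1254 to 1327 CPM, and most of that sum was Map2. Of 6 neuron markers 3 were called higher, Map2 by 0.34 on the log2 scale, Dcx by 1.02 and Snap25 by 5.87. Snap25 had a mean of only 0.27 CPM in WT. Of the neuron markers without a call, Rbfox3 and Syt1 were at 2.25 and 0.85, and Tubb3 was at −0.88. The part of these cells in the falls of Apoe and Npc1 was not tested.

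Npc2, the partner of Npc1 in lysosomal export, stood at 108, 106 and 106 CPM in WT and 87.9, 80.2 and 95.3 CPM in the libraries labelled Qk-/-. All of the latter were lower, but the log2 fold change of −0.28 (SE 0.091) did not pass (adjusted p = 0.0913, edgeR), though it did in DESeq2 (adjusted p = 0.0468). Abcg1 had no read in the 3 WT libraries and 14, 17 and 31 reads in the libraries labelled Qk-/-, which was at least 25.7-fold higher against a floor of 3 counts over the WT group. The test passed (adjusted p = 0.0295, edgeR), but not with the replicate number as a block (adjusted p = 0.0859, edgeR), nor with any library other than replicate 2 labelled Qk-/- left out (adjusted p from 0.0940 to 0.137, edgeR). Its level was 0.251 to 0.580 CPM and highest in replicate 2. The summed macrophage and leukocyte markers were also highest there, at 9.33 to 11.9 CPM in WT and 12.3 to 19.2 CPM in the libraries labelled Qk-/-, with none of 7 tested markers called, and their part in the Abcg1 reads was not tested.

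The remaining members did not pass or could not be tested in NLPCs. Abca1, at 134, 97.6 and 125 CPM in WT and 129, 132 and 133 CPM in the libraries labelled Qk-/-, overlapped and had a log2 fold change of 0.14 (SE 0.12, adjusted p = 0.4996, edgeR). Soat1 stood at 177, 168 and 165 CPM against 160, 179 and 148 CPM, with a log2 fold change of −0.07 (SE 0.092). Nr1h2 was at 33.4, 35.8 and 35.1 CPM against 32.4, 17.4 and 36.7 CPM, where the low value was that of replicate 2, the library with the fewest counts (log2 fold change −0.26, SE 0.24, adjusted p = 0.529, edgeR). Nr1h3 stood at 1.52, 1.86 and 1.76 CPM against 2.08, 1.16 and 1.77 CPM, with a log2 fold change of −0.033 (SE 0.37). Cyp27a1, with 0 reads in each WT library and 1, 9 and 12 in the others, was at least 9.12-fold higher against the same floor and had too few reads to be tested. Ch25h had 1 read in a single WT library and 0 reads in the other 5.

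Of the other pathway genes, 64 could be tested in NLPCs and 9 passed, 4 higher and 5 lower, with a median log2 fold change of −0.10. The share of all genes that passed was 10.7%, so the share of pathway genes was near the background. Clu, which encodes the apolipoprotein clusterin, fell from 349 ± 34.99 to 116 ± 32.2 CPM (log2 fold change −1.58), and Apoc1, a neighbour of Apoe in its gene cluster, from 8.25 ± 0.12 to 2.79 ± 0.65 CPM (log2 fold change −1.55). Both encode apolipoproteins, as Apoe does. The lysosomal membrane genes Lamp1 and Scarb2 had log2 fold changes of −1.03 and −0.73, so that 2 of 8 lysosomal genes were lower, beside Npc1. Arl4c, an LXR target, was higher by 0.61, and so were Osbpl6, an oxysterol-binding protein family member, by 0.56 and Nceh1 by 0.46, while Osbpl11 of the same family had a log2 fold change of −0.46. The count of pathway genes was 18 without replicate 2 labelled Qk-/- and 4 when any other library was left out, where the 4 were all lower.

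In HLE-B3 cells the export transporter gene ABCA1 and the acceptor gene APOE were both lower. Of 8 members tested, 5 passed (edgeR's quasi-likelihood test with Benjamini-Hochberg adjustment), with ABCA1, APOE, NPC1 and CYP27A1 lower and SOAT1 higher in QKI KO cells. The background was also high, since 33.3% of 19049 genes tested passed, 17.0% higher and 16.3% lower. CYP27A1 passed the filter on low counts only through the WT libraries, and of the other 7 members 4 passed the test. The members' median log2 fold change was −0.43, and that of all genes was −0.020. Groups did not overlap for 5 of the 8 members and for 44.6% of all genes, 22.0% higher and 22.6% lower. The members' median and the 5 without overlap include CYP27A1, which had to differ. The 5 calls held with each library left out in turn. Marker lists moved as well, with the summed astrocyte and neural stem markers at 122 to 132 CPM in WT and 58.1 to 61.9 CPM in QKI KO cells, and all 4 tested neuron markers lower. Most of the astrocyte and neural stem sum was NES, at a mean of 101 CPM in WT and 42.3 CPM in QKI KO cells. Of 4 tested in that list NES and SLC1A3 were called lower (log2 fold changes −1.25 and −0.61). SOX2 (0.049) and S100B (0.61) were not called. The endothelium and mural markers were at 255 to 281 CPM against 385 to 413 CPM, but of 4 tested ACTA2 was called higher (log2 fold change 0.76) and PDGFRB lower (−0.21). The summed lens epithelium markers overlapped, at 1398 to 1524 CPM and 1455 to 1618 CPM, but of 4 tested CRYAB was called higher (0.85) and CDH2 lower (−0.75). The part of these markers in the members' values was not tested.

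CYP27A1 (chr2:219646472-219680016, GRCh37) had the largest fall, from 1.54, 1.90 and 1.46 CPM in WT cells to 0.054, 0.130 and 0.136 CPM in QKI KO cells. These are 126, 139 and 105 reads against 4, 9 and 10. Its log2 fold change was −3.92 (SE 0.46, adjusted p = 4.76e-06, edgeR). APOE (chr19:45409048-45412650) stood at 22.6, 23.7 and 21.4 CPM in WT and at 11.3, 8.45 and 10.02 CPM in QKI KO cells. It was lower in every QKI KO library, with a log2 fold change of −1.18 (SE 0.11, adjusted p = 4.25e-07, edgeR).

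ABCA1 (chr9:107543287-107690436) stood at 46.8, 44.3 and 48.4 CPM in WT and 27.9, 26.8 and 27.9 CPM in QKI KO cells. The 3 QKI KO libraries lay close together below all WT libraries, and the log2 fold change was −0.76 (SE 0.070, adjusted p = 3.77e-07, edgeR). SOAT1 (chr1:179262849-179327815) was the only member that rose, from 38.3, 36.9 and 39.8 CPM to 67.9, 68.9 and 72.1 CPM. Its log2 fold change was 0.86 (SE 0.064, adjusted p = 3.25e-08, edgeR).

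NPC1 (chr18:21086148-21166470) stood at 67.5, 74.1 and 78.1 CPM in WT and 42.0, 46.3 and 39.8 CPM in QKI KO cells. All QKI KO libraries were lower, at a log2 fold change of −0.78 (SE 0.075, adjusted p = 6.07e-07, edgeR). The genes around it were lower as well. The 50 nearest tested genes had a median log2 fold change of −0.47, with 20 of them lower and 4 higher, and the 304 tested genes of chromosome 18 had a median of −0.44. Less the median of its neighbours, NPC1 was at −0.31. The neighbours of SOAT1 had a median of 0.37, which left 0.49 for SOAT1, whereas those of ABCA1 and CYP27A1 were at 0.035 and 0.034. The neighbours of APOE went the other way, with a median of 0.28, which left −1.46 for APOE. The part of the chromosomal regions in these values was not tested.

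**Figure D2:**
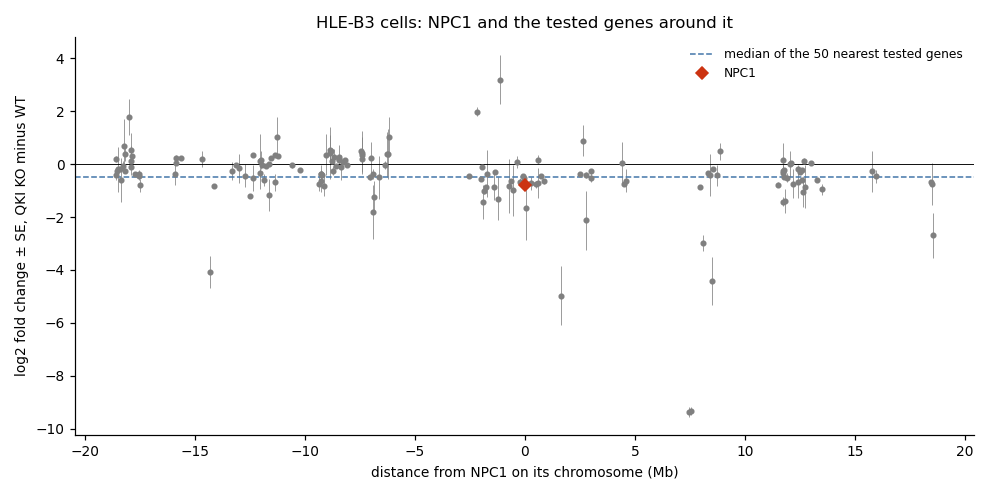
Each grey point is the log2 fold change (QKI KO minus WT HLE-B3 cells, bars give the SE) of a tested gene against its distance from NPC1 in Mb, with NPC1 as a red diamond. NPC1 at −0.78 lies among neighbours whose median, the dashed line, is −0.47.

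The other members of the HLE-B3 table gave no call. NPC2 (chr14:74942895-74960880) stood at 17.2, 20.3 and 17.03 CPM in WT and 19.4, 16.3 and 18.4 CPM in QKI KO cells, with a log2 fold change of −0.013 (SE 0.10). NR1H2 (chr19:50832910-50886645) stood at 32.8, 35.1 and 27.9 CPM against 30.0, 32.9 and 33.0 CPM, with a log2 fold change of 0.0012 (SE 0.087). NR1H3 (chr11:47269851-47290584) stood at 4.26, 4.53 and 4.04 CPM against 3.90, 3.57 and 4.49 CPM, with a log2 fold change of −0.10 (SE 0.17). In all 3 genes the groups overlapped. ABCG1 (chr21:43619799-43717354) had 8, 0 and 7 reads in WT and 0, 8 and 1 in QKI KO cells, and CH25H (chr10:90965386-90967074) had 0, 17 and 13 against 5, 9 and 8, so neither could be tested.

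Of 58 other pathway genes tested in HLE-B3 cells, 24 passed, 11 higher and 13 lower, with a median log2 fold change of −0.048, where 33.3% of all genes passed, 17.0% higher and 16.3% lower. The largest was LPL, lipoprotein lipase and an LXR target, with a log2 fold change of −3.24 from a level of only 0.405 ± 0.189 CPM in WT cells. It had 90 reads in WT and 9 in QKI KO cells. LPL passed the filter on low counts only through the WT libraries, so that it had to differ, and it is counted in the 24. ABCA3, a lipid transporter, had one of 1.03, PLTP one of −0.97, ABCA7 one of −0.82, and the oxysterol-binding family member OSBPL5 one of −0.77. NCEH1 rose by 0.77, CAV1, which encodes the coat protein of caveolae, by 0.66, and STARD3, a late endosomal sterol transfer protein, by 0.51. Of the other LXR targets 3 of 8, LPL among them, were lower and none higher. Of the sterol transfer genes 8 of 21 were higher and 5 lower, and neither list was tested against all genes.

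**Figure D3:**
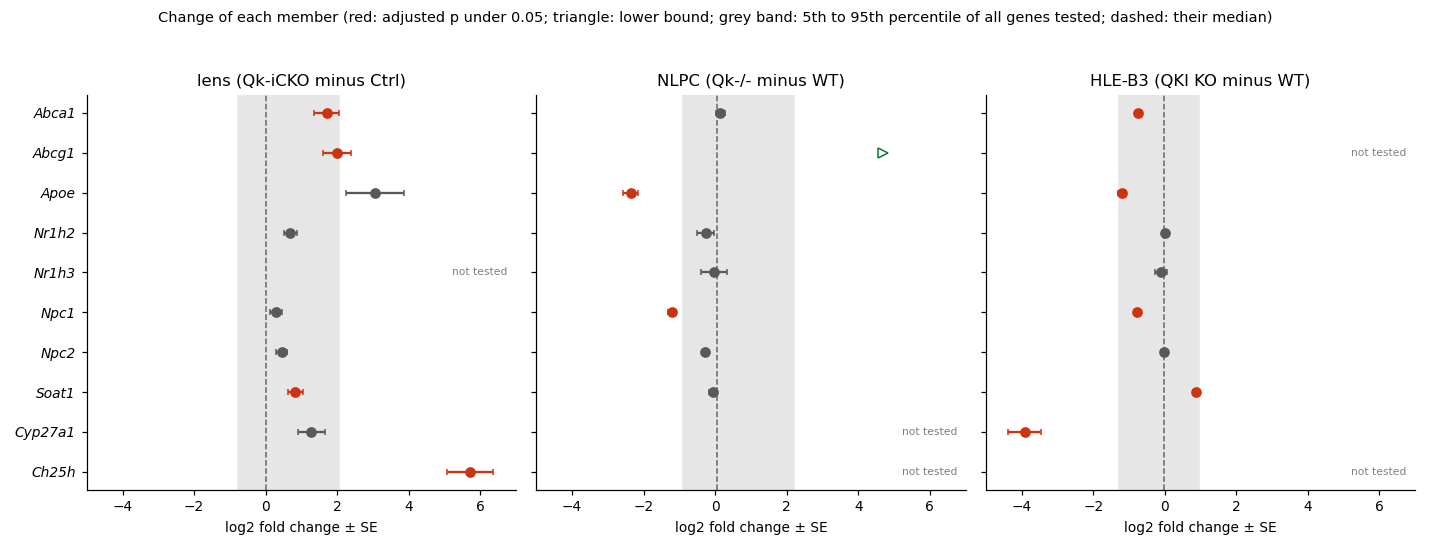
Points give the log2 fold change of each member after deletion with its SE in the 3 systems, in red where the adjusted p was under 0.05, with the 5th to 95th percentile of all genes tested in grey. Apoe lay at 3.05 in the lens, −2.37 in NLPCs and −1.18 in HLE-B3 cells, and the triangle for Abcg1 in NLPCs marks the lower bound of 25.7-fold.

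Since a call in 1 system and not in another does not show a difference, the change was compared between lens and NLPCs in a joint fit of the 12 mouse libraries. All 10 members could be tested there, and 4 passed (edgeR's quasi-likelihood test of the interaction with Benjamini-Hochberg adjustment), with 1 difference above 0 and 3 below it, where 8.54% of 16675 genes passed, 3.21% above 0 and 5.33% below. For Apoe the log2 fold change in NLPCs minus that in the lens was −5.34 (SE 0.90, adjusted p = 0.00344, edgeR), for Npc1 it was −1.41 (SE 0.19, adjusted p = 0.000994, edgeR) and for Abca1 −1.46 (SE 0.38, adjusted p = 0.0350, edgeR). The Apoe and Npc1 differences passed in every alternative fit. That of Abca1 was lost with total counts in place of TMM (adjusted p = 0.0511, edgeR) and when Ctrl lens 1, Ctrl lens 2, Qk-iCKO lens 1, or WT or Qk-/- library 1 or 3 of the NLPCs was left out (adjusted p from 0.0663 to 0.0867, edgeR). For Abcg1 the fitted difference was 4.75 (SE 1.01, adjusted p = 0.0181, edgeR), but its WT NLPC group had no reads, so the size depends on the prior count of the fit. Npc2, Nr1h2 and Soat1 had differences of −0.63, −0.87 and −0.80 that did not pass (adjusted p = 0.0597, 0.116 and 0.0649, edgeR). Those of Nr1h3, Cyp27a1 and Ch25h did not pass either (adjusted p = 0.415, 0.0858 and 0.1102, edgeR). In DESeq2 the differences of Npc2, Soat1, Cyp27a1 and Ch25h passed (adjusted p = 0.0268, 0.0263, 0.0356 and 0.0247). With DESeq2 included, that of Npc2 passed in 4 of 18 alternative fits and that of Soat1 in 3 of 18. The Cyp27a1 difference passed in 2 of 17 and the Ch25h difference in 1 of 17.

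Levels between genes were compared per kb of merged exon. In controls of all 3 systems Apoe led, at 17.2 ± 10.2 CPM per kb (SD, n = 3) in the Ctrl lens, 99.2 ± 5.84 in WT NLPCs and 10.5 ± 0.52 in WT HLE-B3 cells. These tables were normalised separately, so these levels are not ranked across them. In the Ctrl lens Npc2 followed at 9.14 ± 0.83 CPM per kb, and the ranges of Apoe (5.57 to 24.8) and Npc2 (8.61 to 10.1) overlapped. Nr1h2 was next at 2.37 ± 0.29, and then Npc1 at 1.06 ± 0.12 CPM per kb. Soat1 at 0.840 ± 0.062 and Abca1 at 0.665 ± 0.191 CPM per kb had overlapping ranges. Abcg1 at 0.232 ± 0.099 CPM per kb could not be told from Cyp27a1 at 0.233 ± 0.070. In WT NLPCs Npc2, Soat1, Npc1, Abca1 and Nr1h2 stood between 19.6 and 10.4 CPM per kb, and the range of Abca1 overlapped those of Npc1 and Nr1h2. LXRα was below LXRβ in each control group, with Nr1h3 at 0.180 against 2.37 CPM per kb for Nr1h2 in the lens, 0.681 against 10.4 in NLPCs, and 0.943 against 5.98 for their human counterparts in HLE-B3 cells. In WT HLE-B3 cells NPC1, NPC2, NR1H2 and SOAT1 followed APOE, between 7.55 and 5.47 CPM per kb, and the ranges of NPC1 and NPC2 overlapped, as did those of NR1H2 and SOAT1.

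**Figure D4:**
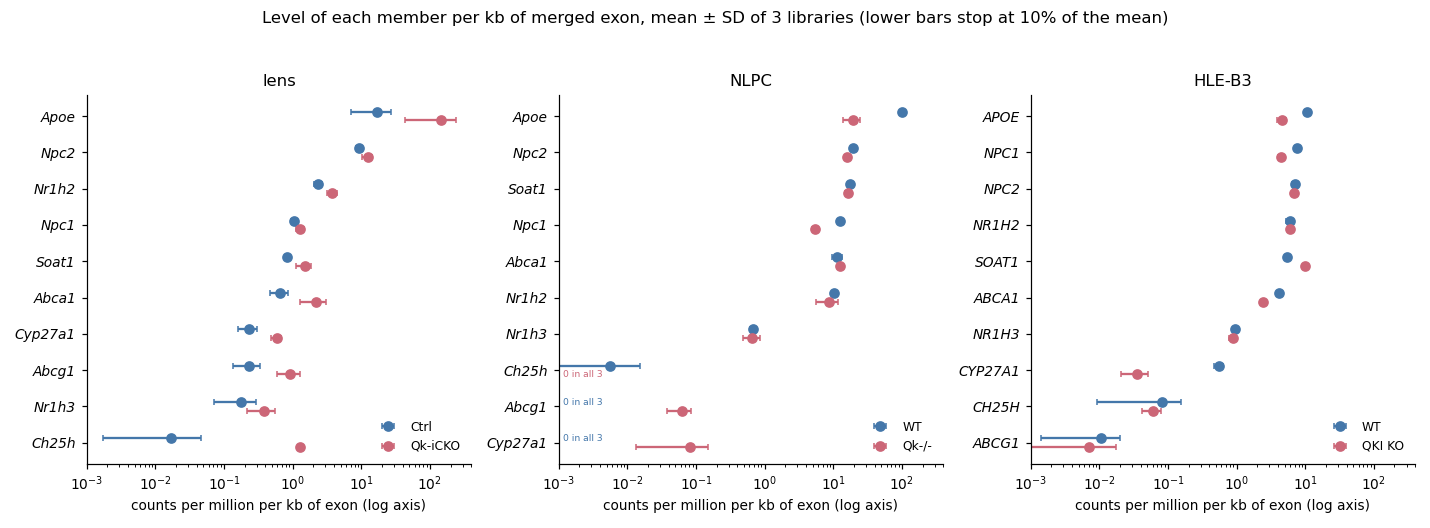
Points give the mean CPM per kb of merged exon on a log axis, with the SD of 3 libraries, for control (blue) and deletion (red) groups, in the order of the control level of each system. Apoe leads each control group, and Ch25h in the lens moves from 0.017 in Ctrl to 1.29 in Qk-iCKO.

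The genes most like Abca1, Apoe and Npc1 were sought over the 12 mouse libraries by the Pearson r of log2 CPM after the mean of each system was subtracted, among 11226 genes tested in both tables, as a description in which the points share libraries and depth. For Abca1 these were the imprinted zinc finger gene Peg3 (r = 0.986), the zinc finger gene Plagl1 (r = 0.979) and the trans-Golgi gene Tgoln1 (r = 0.978). For Apoe they were the basement membrane gene Nid2 (r = 0.985), Stom, which encodes the membrane protein stomatin (r = 0.979), and the adhesion scaffold gene Nedd9 (r = 0.972). For Npc1 they were the SMAD co-repressor gene Skil (r = 0.968), the small GTPase gene Rhoa (r = 0.967) and Fhl1 (r = 0.964).

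**Figure D5:**
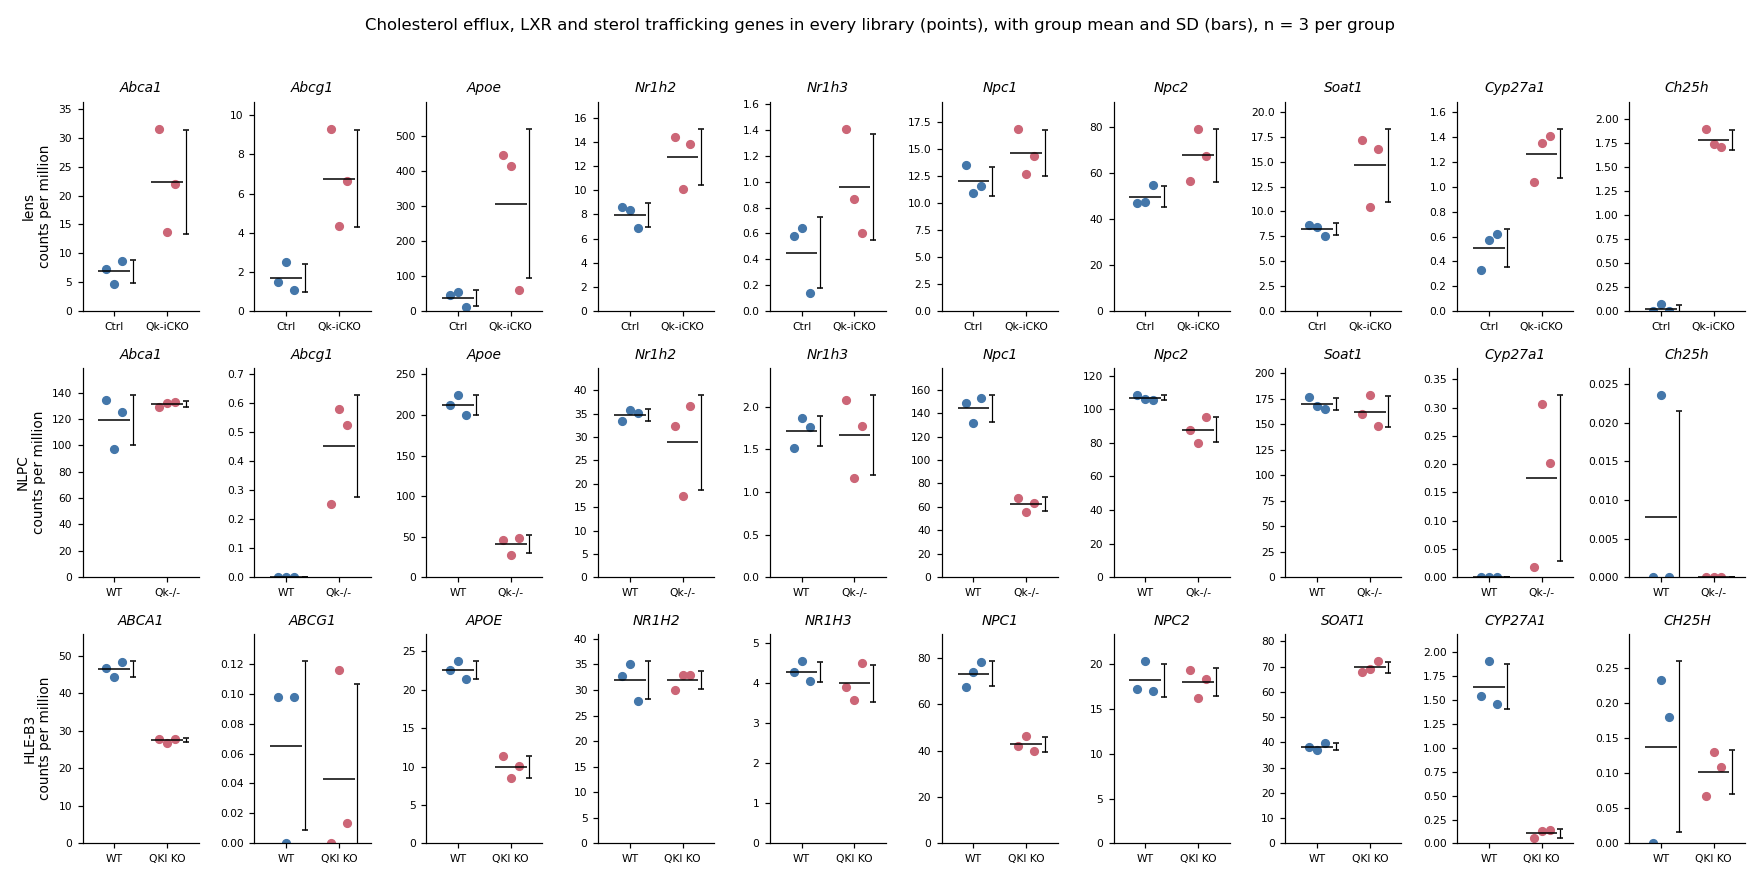
Points give the CPM of each member in each library on linear axes from 0, by system (rows) and group, with the group mean as a line and the SD as a bar beside it (n = 3). For Apoe the Qk-iCKO lenses lie at 60.8 to 444 and the Ctrl lenses at 11.9 to 53.0, and the NLPC and HLE-B3 deletion libraries lie below their controls.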

How the data were processed

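Stranded paired-end reads of total RNA were aligned by the authors with STAR 2.6.1b to mm10 or hg19 and counted with HTSeq 0.11.0. The 1 table deposited for each system holds unnormalized whole-number counts. All 18 libraries were used. Each table was fitted whole with edgeR 4.0.16 in R 4.3.3 (filterByExpr with a minimum count of 10 and total of 15, TMM, quasi-likelihood test, no covariates), with Benjamini-Hochberg adjustment over all genes tested and a threshold of 0.05. The members and the lists of pathway genes and cell type markers were chosen with earlier results of these data known. All 10 members were named in each system, and of the pathway genes those called, at most 8 by absolute log2 fold change. The smallest p of an exact permutation of 3 against 3 libraries is 0.10, so none was used for calls.

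The alternatives were RLE or total-count scaling, factors without crystallin genes (lens), 2 other filters, DESeq2 1.42.0 (Wald test), a replicate block, and each library left out. After subtracting group means, same-numbered libraries correlated at 0.23, 0.13 and 0.52 in the lens, 0.12, 0.32 and 0.15 in NLPCs and 0.061, 0.057 and −0.049 in HLE-B3 cells. Differently numbered libraries reached 0.28 in the lens (Ctrl 2 with Qk-iCKO 1) and 0.23 in NLPCs (WT 1 with replicate 3 labelled Qk-/-). The data therefore do not settle whether the numbers pair libraries, and the replicate block served only as an alternative. CPM values use TMM-scaled library sizes. Merged exon lengths and positions came from GENCODE (GRCm38 and GRCh37). The fits were tested on simulated counts. Sequencing of chromatin was not analysed here.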

Additional observations from a re-analysis of the deposited data

Results flagged for a closer look

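In 4 members the change after deletion differed between lens and NLPCs by the test of the difference itself (edgeR's quasi-likelihood interaction test). The log2 fold change in NLPCs minus that in the lens was −5.34 for Apoe, −1.46 for Abca1, −1.41 for Npc1 and 4.75 for Abcg1, the last fitted against a group without reads. The systems also differ in tissue, age, depth and treatment, which cannot be told apart from the system.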

How the results depend on the processing

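Counts of called members stayed within 1.5 times their main value in all 3 systems under every scaling, filter, test and block, and with each NLPC or HLE-B3 library left out, but with a lens left out the lens count of 4 ran from 1 to 5. The pathway count in the lens (11) was 7 under scaling to total counts, 20 when a single count sufficed for a gene to be tested, and 3 to 16 with a lens left out. In NLPCs (9) it was 14 in DESeq2 and 4 to 18 with a library left out. The count of members whose change differed between lens and NLPCs (4) was 8 in DESeq2. The signs of the smallest changes were not stable. The log2 fold change of Nr1h3 in NLPCs was 0.011 with total counts, 0.0038 with at least 10 counts in every library, and from −0.22 to 0.17 with a library left out, above 0 without WT replicate 2 (0.018) and without replicate 2 labelled Qk-/-. That of NPC2 in HLE-B3 cells ran from −0.067 to 0.083 with a library left out, above 0 without WT replicate 2 and without QKI KO replicate 2 (0.058). That of NR1H2 was −0.054 with total counts, −0.0074 with at least 10 counts in every library, and from −0.080 (without WT replicate 3) to 0.083 with a library left out, with −0.017 without QKI KO replicate 2 and −0.0093 without QKI KO replicate 3. The cause was not tested. Beside Apoe in the lens and Abcg1 in NLPCs, the replicate block changed no other call of a member, and in HLE-B3 cells it left 5 members and 23 pathway genes called. Total counts alone moved the median log2 fold change of all lens genes to 0.29, and all 9 tested members stayed above 0. Depth limited Nr1h3 and Ch25h in the lens, Abcg1, Cyp27a1 and Ch25h in NLPCs and ABCG1 and CH25H in HLE-B3 cells.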
